A study of Mus musculus with 32 samples.

Results

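Of the 32 single-oocyte libraries in the study, 24 came from metaphase II (MII) oocytes, and the numbers in their library names fall into 2 separate stretches. The 14 libraries numbered from 2 to 13 are called low-numbered here, and the 10 numbered from 20 to 25 are called high-numbered. The sets were chosen by that number alone, and high-numbered oocytes were compared with low-numbered ones with treatment as a covariate. The low-numbered set holds 7 oocytes from fresh and 7 from vitrified follicles, and the high-numbered set holds 5 of each.

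The study asked what vitrification, ice-free freezing, does to the oocyte of a stored follicle. All 24 oocytes came from wild-type mice, from follicles grown in culture, given the ovulatory hormone hCG and sampled on day 9 as MII oocytes. Fresh follicles went straight into culture and vitrified ones were first frozen. RNA of each oocyte was copied with the SMART-Seq2 v4 Ultra Low Input kit. The meaning of the library numbers, the mouse strain and the mouse or culture behind each oocyte are not given in the sources used here, so whatever else differed between the sets cannot be told apart from the number, and p-values measure the spread between oocytes that may share a mouse or a culture.

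As background, a fully grown oocyte stops transcription before it resumes meiosis, so the MII oocyte lives on messages made earlier. During maturation those messages are translated, shortened or lengthened in their poly(A) tails, and degraded on a schedule, with a cytoplasmic polyadenylation element near the 3' end of some of them directing the lengthening. The kit primes on poly(A), so a value can reflect both how many copies of a message are present and how long their tails are.

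Depth ran from 5910347 to 8326893 counts in high-numbered and from 5300208 to 12206512 in low-numbered oocytes. All 24 held the defining oocyte messages. The growth factor gene Gdf9 lay between 3554 and 8001 CPM (counts per 1e6 of the scaled library size), and the cyclin gene Ccnb1, which accumulates as the oocyte matures, between 4828 and 12561 CPM. Genes of cumulus and granulosa cells, the somatic cells around the oocyte, set a few libraries apart. The 31 listed genes of these cells with a median under 1 CPM summed to 5515 CPM in fresh replicate 11 and 771 CPM in vitrified replicate 12, both high-numbered, to 157 CPM in fresh replicate 1 and 126 CPM in vitrified replicate 7, both low-numbered, to 86.7 CPM in vitrified replicate 1, also low-numbered, and the median was 7.28 CPM in high-numbered and 6.76 CPM in low-numbered oocytes. Results that rest on the first 4 of these oocytes are given with and without them.

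High-numbered oocytes differed from low-numbered ones at 487 of 9114 tested genes (5.34%), by edgeR's quasi-likelihood test with Benjamini-Hochberg adjustment at 0.05. Of these, 201 (2.21%) were higher and 286 (3.14%) lower in the high-numbered set, and 164 differed at least 2-fold, 93 upward and 71 downward. At an unadjusted p under 0.05 there were 1876 genes, and the median log2 fold change of all genes was 0.07. Among the 4428 genes averaging at least 4 on the log2 CPM scale, 8.38% were called, beside the 5.34% of all. Values that were whole in all oocytes were held by 50.1% of tested, 36.8% of higher and 24.5% of lower genes, and a test of the 4562 genes with whole values alone called 97, 44 higher and 53 lower. DESeq2 called 401 genes higher and 401 lower. Without the 4 oocytes rich in cumulus messages 562 genes were called, of which 397 were among the 487 (81.5% of them), all 397 in the same direction. The count fell to 296 without fresh replicate 8, to 282 without fresh replicate 10 and to 287 without vitrified replicate 11. Of the 93 called genes named here, 48 were called whichever 1 oocyte was left out.

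Of the 9114 genes, 7 (0.0768%) had levels in the 10 high-numbered oocytes that did not overlap those in the 14 low-numbered ones. These were picked out after their values were seen. Shmt1 encodes the cytosolic enzyme that moves a carbon unit from serine to folate and lies on chromosome 11 (60788104 to 60811718, GRCm38), where it overlaps Smcr8. It measured from 2.76 to 92.1 CPM (median 31.1) in low-numbered oocytes, and in high-numbered ones it was at 0 in 8 of 10, with 10 counts in all against 3357. The 2 high-numbered oocytes with a count were fresh replicate 11 and vitrified replicate 12, the 2 rich in cumulus messages. Spink2, a serine protease inhibitor gene of the germ line on chromosome 5 (77205107 to 77211471), measured from 7.51 to 29.4 CPM (median 12.3) in low-numbered oocytes and at most 0.767 CPM in high-numbered ones, 6 of which were at 0 (11 counts against 1408). Both genes had counts in every low-numbered oocyte and few or none in the high-numbered ones, so their fitted log2 fold changes of −7.95 ± 0.75 and −6.27 ± 0.58 (SE; adjusted p = 1.13e-07 and 1.04e-07) rest on very few counts on the lower side. The study's 8 germinal vesicle oocytes, from before meiosis resumes, were scaled together with the MII ones. Their values were all whole, unlike those of MII oocytes. Shmt1 had a median of 0.0407 CPM in them (at most 1.33), beside 0 in high-numbered and 33.4 CPM in low-numbered oocytes. Spink2 had 1.36 CPM (at most 4.88), beside 0 and 13.4 CPM. Few or no counts of these genes were thus not particular to high-numbered oocytes.

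Hsd17b13, a lipid droplet dehydrogenase gene on chromosome 5 (103955440 to 103977410), was the third of this kind. It measured from 16.6 to 60.1 CPM (median 31.1) in low-numbered and from 0.469 to 6.22 CPM (median 1.46) in high-numbered oocytes, a log2 difference of −4.08 ± 0.37 (SE; adjusted p = 1.04e-07 by edgeR). Fresh replicate 11, with the most cumulus transcripts, was the highest of the high-numbered oocytes. In germinal vesicle oocytes Hsd17b13 had a median of 8.98 CPM, beside 1.63 and 33.7 CPM in high-numbered and low-numbered oocytes scaled with them. The other 4 genes were well expressed in both sets and shifted without overlap. Isy1, a splicing factor gene, fell from a median of 94.4 CPM to 47.2 CPM (log2 difference −1.01 ± 0.13), and Secisbp2l, a relative of the selenocysteine insertion factors, fell from 596 to 382 CPM (−0.65 ± 0.10). Ostf1 rose from 43.5 to 90.4 CPM (0.94 ± 0.13). Gtf2a1l, the germ cell form of a general transcription factor subunit, rose from 48.1 to 181 CPM (1.55 ± 0.25), and here the sets nearly met, at 144.0 CPM in vitrified replicate 7 of the low-numbered and 144.3 CPM in fresh replicate 9 of the high-numbered set. Each of the 7 calls held when any 1 oocyte was left out.

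**Figure D1:**
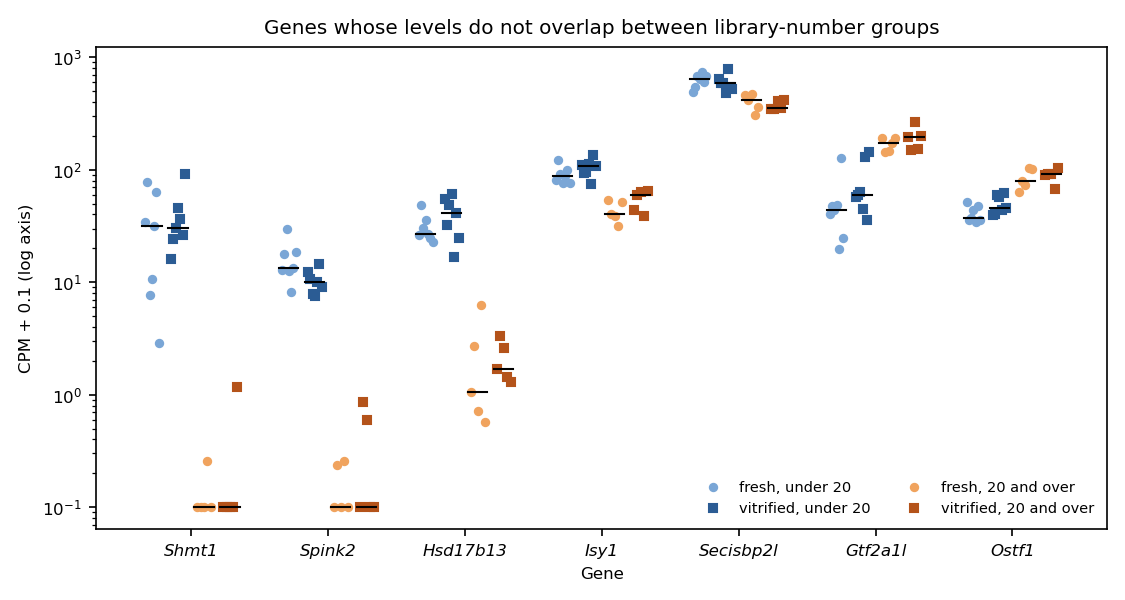
Level of the 7 genes in each of the 24 MII oocytes, as CPM with 0.1 added on a log axis; points are oocytes, colours mark library numbers and treatment, and bars are medians. Shmt1 and Spink2 sit at or near the floor in all 10 high-numbered oocytes, and no gene shown overlaps between high and low numbers.

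The fresh and the vitrified contrast share no oocyte, so each set of 12 gives its own estimate of the difference. Both come from the same fit, with shared scaling and a shared estimate of spread. Whether a gene passes in fresh oocytes thus depends in part on the spread in vitrified ones, and the reverse. Counts from fits of each treatment alone are given further below. Within fresh oocytes 80 genes passed (0.878%), 42 higher and 38 lower, with 1391 at an unadjusted p under 0.05, and within vitrified oocytes 32 passed (0.351%), 5 higher and 27 lower, with 1618 unadjusted. Of the 80 genes called in fresh oocytes 77 had the same direction in vitrified ones (96.2%), and of the 32 called in vitrified oocytes 31 had the same direction in fresh ones (96.9%), beside 57.1% of all genes. Across all genes, which are not independent replicates, the correlation of the 2 log2 fold changes was 0.27.

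Both contrasts called the same 10 genes, all in the same direction, which is 12.5% of the fresh and 31.2% of the vitrified calls. They were Shmt1, Spink2, Hsd17b13, Isy1, Secisbp2l, Ostf1, Ankib1, Serpinb3a, Nptn and Rnf130. Serpinb3a, a protease inhibitor gene, measured from 11.7 to 91.9 CPM (median 29.9) in low-numbered and from 2.58 to 15.4 CPM (median 5.93) in high-numbered oocytes, with 9 of 10 below every low-numbered oocyte. Its log2 difference was −2.18 in fresh and −2.55 in vitrified oocytes. Nptn, a cell adhesion gene, had −1.02 in each, and Rnf130, a ubiquitin ligase gene, had −1.35 and −1.21. The test of the difference between the 2 contrasts called 0 genes by edgeR (930 unadjusted) and 1 by DESeq2. How many genes each contrast called depended on single oocytes: leaving out each of the 24 gave 34 to 135 genes within fresh and 8 to 321 within vitrified oocytes, the highest without vitrified replicate 5.

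**Figure D2:**
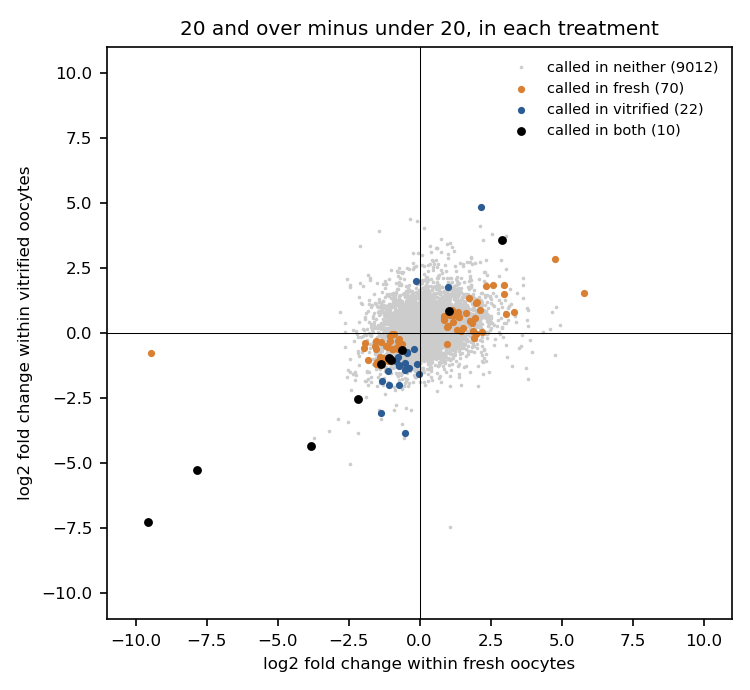
Each point is one of 9114 genes, with the log2 fold change of high-numbered against low-numbered fresh oocytes on the x axis and of vitrified oocytes on the y axis. The 10 genes called in both (black) all lie on the same side of 0 on both axes.

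Among genes averaging at least 4 on the log2 CPM scale, the 12 largest rises ranged from 1.14 to 2.15 on the log2 scale. Besides Gtf2a1l they included Zfp979, Sspn, Ica1l, Plxna1, Ikzf4, Aldh4a1, Hspa5, Pcgf3, Patz1 and Zfp982. Ikzf4, a zinc finger transcription factor gene, measured from 11.4 to 61.6 CPM (median 39.0) in low-numbered and from 41.6 to 209 CPM (median 97.1) in high-numbered oocytes (log2 difference 1.38 ± 0.26, SE, adjusted p = 0.00255 by edgeR), and 8 of 10 high-numbered oocytes lay above every low-numbered one. Pcgf3, a subunit gene of a Polycomb complex, rose from a median of 15.3 to 35.7 CPM (1.25 ± 0.29), with 7 of 10 above. Sspn, a gene of the complex that anchors the cell to its matrix, rose from a median of 9.49 to 102 CPM (1.98 ± 0.56), but the ranges met and the call was lost without any 1 of 14 oocytes.

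Other rises were less even. The zinc finger genes Zfp979 and Zfp982 lie in a cluster of near-identical copies on chromosome 4 and had values that were not whole in 20 and 14 of the oocytes, so the split of reads between them is uncertain. Zfp979 was above 100 CPM in 3 vitrified low-numbered oocytes as well, and its call was lost without any 1 of 19 oocytes and without the 4 cumulus-rich ones (adjusted p = 0.0894). The calls of Plxna1, a semaphorin receptor gene (1.46), Aldh4a1, a proline breakdown enzyme gene (1.30), and Patz1, a transcriptional regulator gene (1.20), were lost without any 1 of 18, 15 and 18 oocytes, and that of Ica1l without 1.

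The 12 largest falls in the same range of levels ran from −1.32 to −1.90, and 11 of their calls held when any 1 oocyte was left out; that of Steap4 was lost without 1. Mmadhc directs vitamin B12 to its enzymes, and it measured from 190 to 1127 CPM (median 623) in low-numbered and from 149 to 284 CPM (median 198) in high-numbered oocytes (log2 difference −1.58 ± 0.26, SE, adjusted p = 7.09e-04 by edgeR). High-numbered oocytes were tightly grouped at the low end of the range of the others. Low-numbered fresh replicate 6 and vitrified replicates 5 and 7 also lay there, at 190, 213 and 195 CPM. These oocytes were also the highest low-numbered ones for Gtf2a1l (126, 130 and 144 CPM) and Ica1l (73.2, 57.8 and 64.2 CPM). For Polk they did not lie with the high-numbered set (32.6, 51.1 and 72.0 CPM). Polk, a DNA polymerase gene for copying past damage, fell from a median of 30.9 to 9.91 CPM (−1.53 ± 0.25), Hscb, a gene for assembling iron-sulphur clusters, from 38.1 to 16.1 CPM (−1.37 ± 0.22), and Blvra, biliverdin reductase, from 36.3 to 13.7 CPM (−1.64 ± 0.31). In each of these 3 genes 9 of 10 high-numbered oocytes lay below every low-numbered one.

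The other large falls were as follows. Cldn34b2, a claudin relative on the X chromosome, had −1.90, Leprot, from the leptin receptor locus, −1.69, and Cndp1, a dipeptidase gene, −1.63. Fbxo3, a ubiquitin ligase adaptor gene, had −1.41, Slc35b3, a Golgi transporter gene, −1.39, and Erp44, a thiol chaperone gene of the secretory pathway, −1.34. Steap4, a metal reductase gene, had −1.33 and Daglb, a lipase gene, −1.32. Daglb overlaps Rac1 in the annotation and had values that were not whole in all 24 oocytes.

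The list of oocyte identity and egg coat genes had 39 tested members, of which 8 were lower and 0 higher in high-numbered oocytes, with a median log2 fold change of −0.27 beside 0.07 over all genes. The share called was 20.5%, beside 5.34% of all genes and 8.38% of those averaging at least 4 on the log2 CPM scale. The linker histone gene of the oocyte, H1f8, measured from 10606 to 27027 CPM (median 16913) in low-numbered and from 8995 to 16656 CPM (median 10644) in high-numbered oocytes (−0.57 ± 0.14, SE, adjusted p = 0.0192 by edgeR). The ranges overlapped, with 5 of 10 high-numbered oocytes below every low-numbered one. Oosp1, an oocyte secreted protein gene, fell by 0.69, Obox2, an oocyte homeobox gene, by 0.83, Izumo1r, the sperm receptor gene Juno, by 0.78, Slbp, which binds histone messages, by 0.43, and the paralogs Omt2a and Omt2b by 0.65 each. Dazl, an RNA-binding translation factor of germ cells that is also on the list of storage genes, fell from a median of 1141 to 589 CPM (−0.87 ± 0.21). Without the 4 oocytes rich in cumulus messages H1f8 had −0.53 and Dazl −0.67 (adjusted p = 0.0549 and 0.0534). The calls of Slbp, Izumo1r, Omt2a, Obox2 and Oosp1 were lost without any 1 of 17, 9, 8, 7 and 3 oocytes. Those of H1f8, Dazl and Omt2b held whichever 1 oocyte was left out. Gdf9 had −0.02 ± 0.13 (SE; adjusted p = 0.942). Obox2, Omt2a and Omt2b have close paralogs with which they may share reads, so their values are uncertain.

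Meiotic and spindle genes were called at shares near the 5.34% of all genes and the 8.38% of well-expressed ones, with 7.14% of the meiotic and 9.76% of the spindle list. Mos, the kinase that starts the cascade holding the oocyte at metaphase II, measured from 1211 to 3572 CPM (median 2402) in low-numbered and from 383 to 1801 CPM (median 932) in high-numbered oocytes, a log2 difference of −1.31 ± 0.21 (SE; adjusted p = 7.00e-04 by edgeR). In 8 of 10 high-numbered oocytes it lay below every low-numbered one, in fresh (−1.48) as in vitrified oocytes (−1.14), and its values were whole in every oocyte. Of the 42 tested genes of meiotic maturation and arrest only Mos, Cdc26 (−0.95) and Anapc10 (−0.55), both subunits of the anaphase-promoting complex, passed, all lower, while the median of the list was 0.01. Among 41 genes of the spindle, kinetochore and cohesion, the securin gene Pttg1 (−0.84), the centromeric histone gene Cenpa (−0.58) and the checkpoint gene Mad2l1 (−0.58) were lower and the kinetochore gene Cenpf (0.66) was higher. Leaving out the 4 oocytes rich in cumulus messages, Anapc10 and Cenpf did not pass (adjusted p = 0.059 and 0.0718). Ccnb1 did not pass (−0.15 ± 0.15, SE, adjusted p = 0.634).

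Genes for storing, tailing and degrading maternal messages were called at a share of 7.14%, near the 5.34% of all genes and 8.38% of well-expressed ones. Of the 56, 2 were higher and 2 lower. The lower ones were Dazl and the poly(A) polymerase gene Papola, which fell from a median of 279 to 151 CPM (−0.81 ± 0.19, SE, adjusted p = 0.0133 by edgeR). The higher ones were the m6A reader gene Ythdf1 (1.33), above every low-numbered oocyte in 9 of 10, and the deadenylase subunit gene Cnot9 (0.39). Of 49 maternal effect factors 6.12% were called, also near the 5.34% of all genes. Ooep, a subunit gene of the subcortical maternal complex, rose from a median of 301 to 545 CPM (0.85 ± 0.19). The methylation keepers Zfp57 (−0.48) and Dnmt1 (−0.89) fell. With those 4 cumulus-rich oocytes left out, Cnot9 and Zfp57 did not pass (adjusted p = 0.0628 and 0.065). Dnmt1 differed by −1.52 in fresh and −0.31 in vitrified oocytes (unadjusted p of the difference 0.0091), which did not pass adjustment.

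Of 40 core splicing genes 5 were lower and 1 higher (15% called, beside 5.34% of all genes and 8.38% of well-expressed ones), with a median of −0.20. U2af1, the subunit that reads the 3' splice site, measured from 36.9 to 157 CPM (median 63.3) in low-numbered and from 15.8 to 49.1 CPM (median 29.3) in high-numbered oocytes (−1.25 ± 0.21, SE, adjusted p = 0.0011 by edgeR). In 8 of 10 high-numbered oocytes it was below every low-numbered one. Sf3b4, of the branch site complex, had −0.89, and the Sm ring genes Snrpg, Snrpf and Snrpd1 had −0.90, −0.77 and −0.64. Srsf6 (1.00) was the 1 that rose, and it was highest in fresh replicate 11. When the 4 cumulus-rich oocytes were left out, Srsf6 had 0.62 (adjusted p = 0.16). The calls of Srsf6, Snrpf and Snrpd1 were lost without any 1 of 14, 11 and 10 oocytes. Those of U2af1, Sf3b4 and Snrpg held whichever 1 oocyte was left out.

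Housekeeping lists were called at shares near or below the 5.34% of all genes. These were 5.08% of cytosolic ribosomal proteins, 5.71% of proteasome subunits and 2.13% of translation factors. Oxidative phosphorylation had 1.89% and mitochondrial ribosomal proteins 1.49%. Cytosolic ribosomal proteins had 3 of 59 lower (Rps27l −0.73, Rps15a −0.91 and Rps2 −2.30) and 0 higher, with a median of 0.22. Ribosomal protein genes have many processed copies, so these 3 are uncertain. The list's median rests on fresh replicate 11, the oocyte with most cumulus messages: it was −0.53 without that oocyte, and from 0.07 to 0.35 without any other. Nuclear subunits of oxidative phosphorylation had 1 of 53 higher (Ndufs1, 1.02) and a median of 0.00, mitochondrial ribosomal proteins 1 of 67 lower (Mrps14, −0.73; median −0.03), proteasome subunits 1 of 35 higher (Psmd2, 0.66) and 1 lower (Psma1, −0.85; median 0.04), and translation factors 1 of 47 lower (Eif2s2, −0.59; median 0.15). The medians of oxidative phosphorylation and mitochondrial ribosomal proteins were also lowest without fresh replicate 11, at −0.38 and −0.25, and ranged up to 0.12 and 0.05 without another oocyte. Of 40 actin and cortex genes Rhoa (−0.82) and Arpc1b (−0.50) were lower (5% called). Of 39 genes of apoptosis and DNA damage (7.69% called) Casp2 (0.89) and Rad50 (0.56) were higher and Bcl2l10, an oocyte survival gene, lower (−0.40). Arpc1b and Rad50 did not pass without the 4 oocytes rich in cumulus messages (adjusted p = 0.0701 and 0.0709). Of 26 genes for calcium, zinc and cortical granules, and of 7 immediate early genes, 0 passed.

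**Figure D3:**
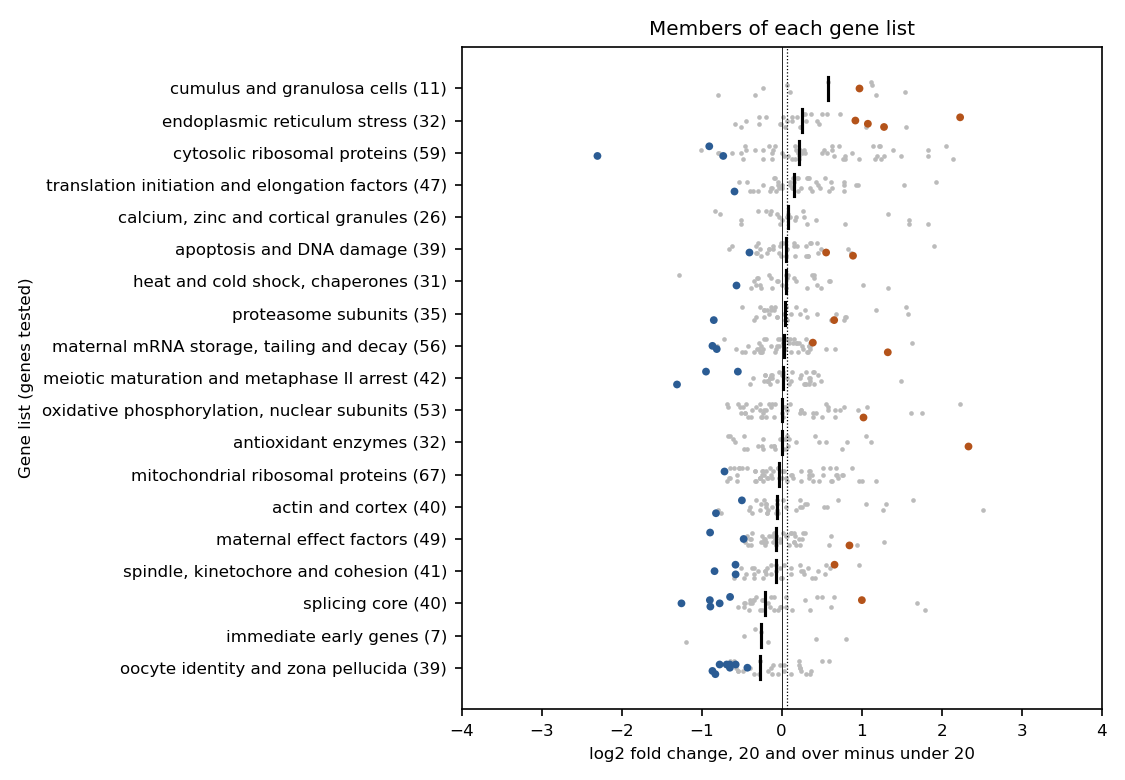
Log2 fold change of high-numbered against low-numbered oocytes for every tested member of each list with at least 5 tested genes; grey points did not pass, coloured points did, black bars are list medians and the dotted line is the median of all genes (0.07). Oocyte identity (8 lower) and splicing (5 lower) have more lower calls than any other list shown, and endoplasmic reticulum stress (4 higher) more higher ones.

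The endoplasmic reticulum folds secreted proteins, and under load the kinase PERK raises the translation of Atf4 while Atf6 and Xbp1 switch on chaperone genes. Of 32 tested genes of this response 4 were higher and 0 lower in high-numbered oocytes (12.5% called, beside 5.34% of all genes called and 2.21% higher), with a median of 0.26. Atf4, the transcription factor, measured from 1.68 to 18.6 CPM (median 5.41) in low-numbered and from 9.37 to 61.7 CPM (median 27.2) in high-numbered oocytes, a log2 difference of 2.23 ± 0.36 (SE; adjusted p = 7.09e-04 by edgeR). It lay above every low-numbered oocyte in 7 of 10. Leaving out the 4 oocytes rich in cumulus messages, Atf4 differed by 2.47 (adjusted p = 1.94e-04).

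The 3 chaperone genes behaved differently from Atf4. Hspa5 (BiP) measured from 33.3 to 138 CPM (median 59.6) in low-numbered and from 40.6 to 719.5 CPM (median 86.2) in high-numbered oocytes (1.28 ± 0.37, SE, adjusted p = 0.0419). Hsp90b1 had medians of 55.9 and 75.8 CPM (1.08 ± 0.30) and the calcium-binding chaperone gene Calr 35.5 and 54.2 CPM (0.92 ± 0.26). Each was highest in fresh replicate 11 (719.5, 476 and 215 CPM), the oocyte with 5515 CPM of cumulus messages, and next in vitrified replicate 12 (344, 187 and 105 CPM), which had 771 CPM of them. Without the 4 oocytes rich in those messages the differences were 0.31, 0.44 and 0.51, with adjusted p of 0.496, 0.135 and 0.176. The part of these messages in the rise of the chaperone genes was not tested. Among stress genes of other lists, the haem oxygenase gene Hmox1 was higher (2.33 ± 0.67, SE, adjusted p = 0.04) at a median of 3.89 against 0.802 CPM, and the chaperone gene Hspa14 lower (−0.57).

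**Figure D4:**
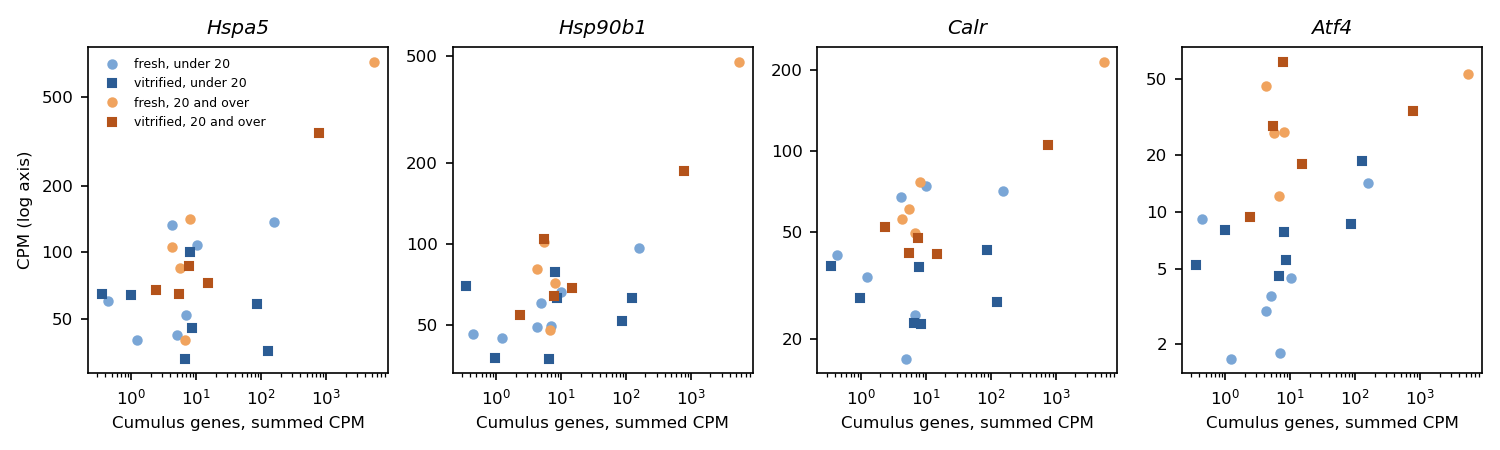
Level of 4 genes of endoplasmic reticulum stress in each of the 24 oocytes (y axis, CPM, log) against the summed CPM of 31 cumulus and granulosa genes with a median under 1 CPM (x axis, log). Hspa5, Hsp90b1 and Calr are highest in the 2 high-numbered oocytes at the right (5515 and 771 CPM of cumulus messages), while Atf4 is also high in other high-numbered oocytes.

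Promoters are shown for these 3 chaperone genes because they share an element. Each was highest in fresh replicate 11 and next in vitrified replicate 12, and a part of the element in this was not tested. The endoplasmic reticulum stress element, bound by Atf6 with NF-Y, reads CCAAT, any 9 bases and CCACG, and was searched on both strands from 250 bases before to 50 after the start in RefSeq promoters (GRCm38.p6). It was found in 19 of 7435 tested genes with a promoter sequence (0.256%), in 8 of 27 on the stress list and in 3 of the 4 called ones, not in Atf4. A match is a description and not a site. The stress list was made for the response that this element serves, so these shares carry no test. Of 165 genes called higher with a promoter sequence 3 held it, which are the same 3, and of 231 called lower 1 did. None of those 3 passed without the oocytes rich in cumulus messages. The matches are in capitals, on either strand.
Hspa5, chr2:34771840-34772139, plus strand: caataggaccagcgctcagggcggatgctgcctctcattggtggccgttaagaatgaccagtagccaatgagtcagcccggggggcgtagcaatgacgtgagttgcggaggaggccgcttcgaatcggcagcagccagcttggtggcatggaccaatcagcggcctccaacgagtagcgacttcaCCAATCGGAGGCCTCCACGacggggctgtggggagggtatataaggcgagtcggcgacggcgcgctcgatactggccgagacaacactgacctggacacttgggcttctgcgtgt
Hsp90b1, chr10:86705395-86705694, minus strand: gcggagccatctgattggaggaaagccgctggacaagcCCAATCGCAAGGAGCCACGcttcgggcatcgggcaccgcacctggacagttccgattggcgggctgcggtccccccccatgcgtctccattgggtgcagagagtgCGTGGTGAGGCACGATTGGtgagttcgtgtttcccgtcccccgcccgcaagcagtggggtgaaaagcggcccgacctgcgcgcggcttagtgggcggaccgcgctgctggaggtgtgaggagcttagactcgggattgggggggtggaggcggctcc
Calr, chr8:84846882-84847181, minus strand: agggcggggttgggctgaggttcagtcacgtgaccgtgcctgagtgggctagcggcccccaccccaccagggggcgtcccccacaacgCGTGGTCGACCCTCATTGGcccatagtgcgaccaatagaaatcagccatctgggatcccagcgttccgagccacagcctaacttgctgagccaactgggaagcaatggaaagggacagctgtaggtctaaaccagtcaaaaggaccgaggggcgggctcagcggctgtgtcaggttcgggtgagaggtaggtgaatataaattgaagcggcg

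The share of called genes ranged over the chromosomes. Chromosome 5 held 52 called genes of 631 tested (8.24%), the highest share, and chromosome 8 the lowest (3.56%). Of 355 windows of 5 Mb with at least 10 tested genes, the median held 1 called gene, and 5 of the 6 with most calls were on chromosome 5. Its first 10 Mb held 12 called genes of 28 tested (42.9%), 4 higher and 8 lower. This region was chosen after the values were seen, so it carries no test.

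Neighbours there moved in opposite directions. Ankib1, a ubiquitin ligase gene (3690000 to 3802925), measured from 0 to 7.51 CPM (median 4.16) in low-numbered and from 3.13 to 51.6 CPM (median 31.6) in high-numbered oocytes, a log2 difference of 3.22 ± 0.50 (SE; adjusted p = 5.71e-04 by edgeR). It lay above every low-numbered oocyte in 9 of 10, the exception being vitrified replicate 10. On one side of it, Rbm48, an RNA-binding protein gene (3583978 to 3596585), fell from a median of 110.3 to 48.3 CPM (−1.15 ± 0.21) and Fam133b had −0.62. On the other side Mterf1a (−1.47) and Mterf1b (−0.76), near-identical copies with values that were not whole in all 24 oocytes, were lower and Akap9, a kinase anchor gene, was higher (0.72). Further along, Cldn12, a claudin gene, rose from a median of 3.02 to 13.7 CPM (2.42 ± 0.46) and Abcb1a, a drug efflux pump gene, from 1.04 to 7.59 CPM (2.29 ± 0.64). The reductase genes Steap2 (−1.26) and Steap4 (−1.33), the replication kinase subunit gene Dbf4 (−0.52) and Tmem243 (−1.26) were lower.

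Other windows of chromosome 5 with many calls were 30 to 35 Mb, with 7 of 52 genes called and the most of any window, 35 to 40 Mb, with 5 of 20, and 105 to 110 Mb, with 5 of 27. The last of these is described because of its large differences, and was chosen after its values were seen. Pde6b, a phosphodiesterase gene of photoreceptors (108388391 to 108432397), measured from 14.8 to 74.8 CPM (median 31.2) in low-numbered oocytes and at most 2.30 CPM in 8 of 10 high-numbered ones, with 25.8 CPM in fresh replicate 8 and 11.1 CPM in vitrified replicate 10. Its log2 difference was −2.94 ± 0.64 (SE; adjusted p = 0.00828 by edgeR). In germinal vesicle oocytes Pde6b had a median of 1.31 CPM, beside 1.16 and 33.6 CPM in high-numbered and low-numbered oocytes scaled with them. Its neighbours Pigg (−3.08), a gene for attaching proteins to membrane anchors that was at 0 in 3 oocytes of each set and whose call was lost without any 1 of 12 oocytes, and Tmem175 (−0.60), a lysosomal channel gene, were lower, and Tmed5 (1.39), a cargo receptor gene, and Pcgf3 were higher.

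**Figure D5:**
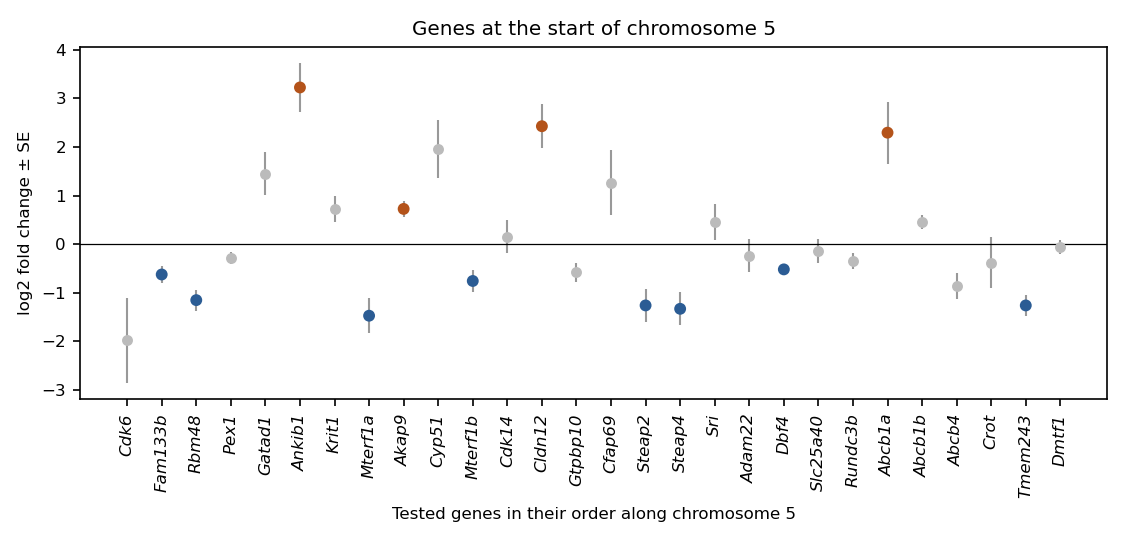
Log2 fold change with its standard error for the 28 tested genes of the first 10 Mb of chromosome 5, in their order along the chromosome; coloured points passed (4 higher, 8 lower) and grey ones did not. Higher and lower genes lie among each other, from 3.22 at Ankib1 to −1.47 at Mterf1a among those that passed.

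Called genes also differed in the shape of their messages. The longest coding transcript (GENCODE M21) had a median length of 2125 bases in 285 lower genes, 3552 in 200 higher ones and 3310 in all 9049 with a transcript. The polyadenylation motif TTTTAT or TTTTAAT stood in the last 100 bases of 35.1% of lower transcripts, 36 of the 200 higher and 21.7% of all, and of 35.5%, 20.3% and 25.6% among genes averaging at least 4 on the log2 CPM scale. These are descriptions, and the longest transcript need not be the one the oocyte uses. Among the called genes searched on the lists for meiosis, spindle, storage and oocyte identity, only Omt2a, Omt2b and Obox2 held the motif there. All the others, most of them lower and among them Mos, Pttg1 and Dazl, did not hold it in that stretch. The rest of the transcript, other transcripts and other forms of the element were not searched, so they may still carry it. H1f8 was not searched. Stretches of 30 bases with the motif in capitals are shown for Omt2a, whose stretch Omt2b shares, and for Obox2, all of which were lower.
Omt2a: taacggTTTTATaataaataaaagtttcag
Obox2: ttaattTTTTATtgttagagtatatgttca

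Over all genes, library number took 9.97% of the variance of log2 CPM after treatment (one-sided exact permutation over all 627264 relabelings within treatment, p = 0.00171), against a median of 4.01% over the relabelings, and treatment took 5.78% after library number. The share lay between 9.48% and 13.8% over every alternative and left-out oocyte, with the largest p at 0.00439. With library number as a covariate, vitrified and fresh oocytes differed at 0 genes by edgeR (1156 unadjusted) and at 86 by DESeq2, and without that covariate edgeR also called 0.

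Library values differed in part. High-numbered oocytes had 10854.5 ± 411 (SD, n = 10) genes with a count and low-numbered ones 10233 ± 567 (SD, n = 14), a difference of 622 (exact permutation p = 0.00635, two-sided, adjusted p = 0.0212 over 10 values). With counts thinned to 5300208 per oocyte the means were 10743.5 and 10125. Without fresh replicate 11, which had 11729 genes, the adjusted p was 0.0585. Total counts did not pass (adjusted exact permutation p = 0.439), nor did the share of counts in the 50 most counted genes (27.5% against 30.6%, adjusted p = 0.0516), and values that were not whole made up 15.3% and 15.1% (adjusted p = 0.903).

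Marker lists of other cells were summed in each oocyte. The summed cumulus and granulosa list did not pass (2914 and 2818 CPM, adjusted exact permutation p = 0.956), and 1 of its 11 tested genes, the matrix gene Tnc (0.97), was called. In most oocytes nearly all of that sum came from genes with a median of at least 1 CPM, so it is a poor measure of RNA from those cells. The 31 genes of lower median had means of 634 and 30.2 CPM and medians of 7.28 and 6.76 CPM (adjusted exact permutation p = 0.228). The theca and stroma list, 9 genes in the table, summed to 48.3 ± 22.5 (SD, n = 10) and 27.0 ± 8.73 (SD, n = 14) CPM (adjusted exact permutation p = 0.00988). On average most of that came from Myh11, a smooth muscle myosin gene with medians of 27.9 and 18.6 CPM. It was the smaller part in vitrified replicate 1 and in the oocytes rich in cumulus messages. In fresh replicate 11, which had the highest sum, Myh11 was 13.7 of 95.3 CPM, and in vitrified replicate 12 it was 16.1 of 50.1 CPM. The leukocyte list, 4 genes in the table, summed to 3.14 and 6.42 CPM (adjusted exact permutation p = 0.0212), mostly Cd68 (medians of 2.55 and 6.07 CPM). Neither Myh11 (0.74) nor Cd68 (−1.25) passed in the test of all genes (edgeR adjusted p = 0.0892 and 0.143). Scaled together with germinal vesicle oocytes, Myh11 had a median of 60.0 CPM in those and 30.2 and 19.9 CPM in high-numbered and low-numbered ones. The cells its messages came from were not tested. Of the erythroid list 0 genes were in the table.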

How the data were processed

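RNA of single mouse oocytes was sequenced, and the submitters' processing notes list HISAT2, featureCounts and mm10 with no settings. The deposited table holds counts for germinal vesicle oocytes. These were used here only to measure a distance and to give the levels of Shmt1, Spink2, Hsd17b13, Pde6b and Myh11. The deposited MII values resemble expected or estimated counts, since 11.7% to 19.7% per oocyte were not whole. How the authors made these is not stated in any source used, and as count tests were planned the values were rounded. Of 13202 entries 27 exact repeats were removed.

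Genes passing filterByExpr of edgeR 4.0.16 (minimum count 10, total 15) were tested with its quasi-likelihood F test in R 4.3.3 after trimmed-mean (TMM) scaling, two-sided, with Benjamini-Hochberg adjustment at 0.05 over all genes. Contrasts within a treatment came from 1 fit of 4 means. The ± beside a log2 difference is a standard error. Library values were compared by exact permutation within treatment, adjusted over 10 values, and variance shares used log2 CPM with a prior count of 2. Named genes are the 12 largest rises and falls averaging at least 4 on the log2 CPM scale, up to 3 genes of each of 22 lists, 12 fixed names (not all printed), and others said to be chosen after their values were seen. All called list members are also named, for the same reason. Positions are from GENCODE M21. The steps were tested on simulated data. Alternatives were DESeq2 1.42.0, limma-voom (limma 3.58.1), other scalings, filters and covariates, and leaving out oocytes. The sets, lists and rules were chosen with earlier results of these data known. A gene that the rule names is not reported here.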

Additional observations from a re-analysis of the deposited data

Results flagged for a closer look

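In groups of 5 or 7 oocytes of one treatment and one number range, 57 of 428 tests found an oocyte whose gap to its nearest neighbour took more of the group's range than Dixon's 95% limit allows. For normally distributed values chance flags about 1 in 20 such groups. The values were tested without a log, most flags were at the highest end, and some genes were chosen after their values were seen. The 57 can therefore not be set against that rate. Fresh replicate 11 (10 flags), fresh replicate 2 (7) and vitrified replicate 12 (7) hold the most. Values below are in CPM unless a unit is given, with the range of the other oocytes of the group.

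In fresh replicate 1, low-numbered, the values that stood apart were summed cumulus and granulosa genes of low median at 157 (others 0.437 to 10.1), Rps2 at 65.4 (others 5.5 to 25.3) and Ndufs1 at 15.6 (others 3.63 to 7.58). Further values there were Hsp90b1 at 96.3 (others 44.5 to 66.2) and Hmox1 at 4.78 (others 0.656 to 1.81). In fresh replicate 2, low-numbered, the values that stood apart were Mrps14 at 289 (others 133 to 182), Cdc26 at 223 (others 98.4 to 144) and U2af1 at 157 (others 48.2 to 84.1). Also apart were Snrpg at 240.1 (others 76.2 to 127), Snrpf at 110.0 (others 38.3 to 64.5) and Ankib1 at 0 (the lowest, others 4.31 to 6.72). That oocyte further had Serpinb3a at 91.9 (others 11.7 to 37). In fresh replicate 4, low-numbered, the values that stood apart were Zfp979 at 49.8 (others 1.7 to 14.6). In fresh replicate 6, low-numbered, the values that stood apart were Gtf2a1l at 126 (others 19.7 to 48.5), Ica1l at 73.2 (others 2.21 to 25.2) and Blvra at 138 (others 19 to 46.5). In fresh replicate 8, high-numbered, the values that stood apart were Pde6b at 25.8 (others 0 to 1.4). In fresh replicate 9, high-numbered, the values that stood apart were Ooep at 1155 (others 492.7 to 648). In fresh replicate 10, high-numbered, the values that stood apart were Abcb1a at 4.57 (the lowest, others 7.57 to 8.09). In fresh replicate 11, high-numbered, the values that stood apart were the number of genes with a count at 11729 (others 10578 to 10777), summed cumulus and granulosa cells at 9471 (others 1518 to 2679.9) and the distance to the mean profile of its group at 0.17 (others 0.0415 to 0.0733). It also had summed cumulus and granulosa genes of low median at 5515 (others 4.26 to 8.11), Shmt1 at 0.155 (all others 0) and Hspa5 at 719.5 (others 40.6 to 141). Further values there were Rps2 at 14.1 (others 0 to 2.47), Hsp90b1 at 476 (others 47.7 to 101) and Calr at 215 (others 49.6 to 76.6). Also apart were Srsf6 at 41.4 (others 6.49 to 10.6). In fresh replicate 12, high-numbered, the values that stood apart were Casp2 at 29.4 (others 11.5 to 16.2). In vitrified replicate 1, low-numbered, the values that stood apart were the total count at 12206512 (others 5300208 to 7273898) and the percent of values not whole at 19.7 (others 11.7 to 13.7). In vitrified replicate 4, low-numbered, the values that stood apart were Tmem175 at 162 (others 87.9 to 119). In vitrified replicate 5, low-numbered, the values that stood apart were Plxna1 at 66.8 (others 2.61 to 26.8) and Pttg1 at 3811 (the lowest, others 6788 to 8985). In vitrified replicate 6, low-numbered, the values that stood apart were Psma1 at 983 (others 308 to 525), Izumo1r at 149.9 (others 50.7 to 82.6) and Pigg at 15.1 (others 0 to 5.5). In vitrified replicate 7, low-numbered, the values that stood apart were summed cumulus and granulosa cells at 4844 (others 2572 to 3332), Shmt1 at 92.1 (others 15.8 to 46) and Atf4 at 18.6 (others 4.58 to 8.62). That oocyte further had Hmox1 at 2.68 (others 0 to 0.912) and Nptn at 443 (others 212 to 283). In vitrified replicate 9, high-numbered, the values that stood apart were Leprot at 111 (others 33.3 to 52.4) and Daglb at 37.7 (others 8.01 to 8.89). In vitrified replicate 10, high-numbered, the values that stood apart were Obox2 at 8544 (others 4688 to 5800.4), Pde6b at 11.1 (others 0.359 to 2.3) and Tmem175 at 106 (others 60.1 to 70.1). In vitrified replicate 11, high-numbered, the values that stood apart were Ikzf4 at 209 (others 88.1 to 120.2) and Psmd2 at 403 (others 249 to 291). In vitrified replicate 12, high-numbered, the values that stood apart were summed leukocytes at 6.59 (others 0.159 to 1.41), summed cumulus and granulosa genes of low median at 771 (others 2.38 to 15) and Shmt1 at 1.08 (all others 0). It also had Hspa5 at 344 (others 65.1 to 86.9), Calr at 105 (others 41.3 to 52.4) and Rhoa at 76.2 (others 31.4 to 41.6). Further values there were Cd68 at 6.11 (others 0 to 1.15).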

How the results depend on the processing

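The 487 genes became 97 with whole values alone, 765 without the 4 oocytes with most transcripts of the whole cumulus list, 48 in fresh and 27 in vitrified oocytes fitted alone and 802 with DESeq2, which split evenly between higher and lower. Of those 4 oocytes, fresh replicate 6 and vitrified replicate 5 had only 4.99 and 8.03 CPM of the low-median cumulus genes. Leaving them out is therefore not a removal of cumulus-rich oocytes alone. Leaving out 1 oocyte gave 282 to 655. Within fresh oocytes the 80 genes became 133 with a stricter filter, 14 with whole values alone, 337 with DESeq2 and 50 without the 4 oocytes rich in cumulus messages (an alternative chosen after seeing the data), and 34 to 135 without 1 oocyte. Within vitrified oocytes the 32 became 20 with no filter, 8 with whole values alone, 313 without the 4 oocytes of the whole cumulus list, 379 with DESeq2 and 8 to 321 without 1 oocyte. The difference between the contrasts had 1 gene with DESeq2 and 0 without any 1 oocyte, and treatment 86 with DESeq2 and 0 to 1 without 1 oocyte. The cause was not tested.

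The difference in genes with a count was 562 without the 4 oocytes of the whole cumulus list, no longer past the threshold, and 519 to 706 without 1 oocyte. The percent of values not whole reversed to −0.22 without those 4 and to −0.0977 without the 4 rich in cumulus messages, where the cumulus sum of low-median genes reversed to −4.69. The sum of the whole cumulus list reversed to −387 and −510 in these and ranged from −642 to 352 without 1 oocyte. These uncalled genes reversed: Ccnb1 to 0.12 in fresh oocytes alone, and Gdf9 to 0.0106 with the stricter filter, 0.0358 and 0.0259 without each set of 4, 0.0562 in fresh oocytes alone and −0.0543 to 0.0430 without 1 oocyte. Of the 93 called genes named in the text 0 reversed. Of 797 list medians under alternatives 18 moved.

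Equal replicate numbers did not pair fresh with vitrified oocytes: 2 of 12 correlations were over 0.1, from −0.43 to 0.19, and 0 fresh oocytes correlated best with their own number. In many of these pairs the library numbers differ, and pairing by equal library number was not examined. The sets share no numbers, so a replicate block could be fitted only for the difference between the contrasts and for treatment, with 0 genes called in each (576 and 790 unadjusted).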
